A study of Rattus norvegicus with 30 samples.

Results

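The ATP-binding cassette (ABC) transporters and the organic anion transporting polypeptides (Slco) were followed in the liver of handled rats. Members were all genes whose only annotated symbol begins with Abca, Abcb, Abcc, Abcd, Abce, Abcf, Abcg or Slco, leaving out Abcb4, Abcb11, Abcc2 and Slco1b2. This gave 46 of the 14217 genes with 1 symbol on the array, measured by 66 of 31042 probe sets. Where a gene had several probe sets, as 16 of the 46 did, the set with the highest mean over the 30 arrays stood for it. The subfamilies held 8 Abca, 5 Abcb, 8 Abcc, 3 Abcd, 4 Abce or Abcf, 6 Abcg, 6 Slco1 and 6 other Slco genes.

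The study asked what routine handling does to liver RNA. Left-lobe RNA of 30 female Sprague-Dawley rats, an outbred stock, aged 10 weeks, was hybridised to the Affymetrix Rat Genome 230 2.0 array, 1 rat per array. They were 10 unhandled controls, 10 rats handled on 1 day and 10 rats handled on 4 days, none of which received a compound. Handling combined weighing, restraint in a Broome restrainer, water given by oral gavage and repeated bleeding from the tail vein, so that these procedures cannot be told apart. Necropsy was on day 2 for the controls and the rats handled for 1 day and on day 5 for the rats handled for 4 days. No unhandled rats were killed on day 5, so days of handling and day of necropsy cannot be told apart after 4 days.

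ABC proteins use ATP to move lipids, bile salts, drug conjugates, haem compounds or fatty acyl-CoA across membranes. In the hepatocyte they act mainly as export pumps of the canalicular and sinusoidal membranes or as carriers of mitochondria and peroxisomes. Slco proteins work without ATP and mostly take organic anions such as bile acids, bilirubin, steroid conjugates and many drugs up from blood. The Abce and Abcf proteins carry the ATP-binding domains without a membrane part and serve in translation.

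Intensities are on a linear scale on which the mean over the probe sets of an array is 1, and the median probe set of an array lay between 0.118 and 0.125. Of the 46 genes, 25 lay above the array median on every array, 7 lay below it on every array and 14 lay on both sides. Values near 0.02 are at the low end of the arrays, whose 5th percentiles were 0.0149 to 0.0220, and say little about order. Since probes differ in affinity, levels are compared between rats for a gene and not between genes. The defining hepatocyte markers were bright on every array, with a summed intensity of 244 to 287 in controls, 253 to 276 after 1 day and 248.9 to 286 after 4 days. Control rats 1 to 3 stood apart from the remaining 27 rats: 649 genes lay higher and 616 lower in all of them than in any other rat, 8.90% of the genes. For many of the genes described below the difference without them is given as well, and a difference given alone may also depend on them.

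No transporter gene passed the test for a change with handling. After 1 day, 0 of 46 passed the test (limma, adjusted p under 0.1 over all probe sets), against 28 of 31042 probe sets, or 0.0902%, and 17 of 14217 genes, or 0.12%. After 4 days, 0 of 46 passed, against 204 probe sets, or 0.657%, and 104 genes, or 0.732%. Between the handled groups 0 of 46 passed, against 0 probe sets, or 0%. At an unadjusted p under 0.05, limma gave 9 of 46 genes after 1 day (6 higher, 3 lower), or 19.6%, where 11.1% of all genes (4.63% higher, 6.51% lower) and 9.33% of all probe sets lay. After 4 days it gave 5 genes (4 higher, 1 lower), or 10.9%, where 12.6% of all genes (4.99% higher, 7.6% lower) and 11.3% of all probe sets lay. Between the handled groups it gave 0 of 46, where 4.71% of all genes and 5% of all probe sets lay. The exact rank-sum test also called 0 of the 46 genes in each comparison, against 28, 155 and 0 of all probe sets. The methods' t-test called 0 of the 46 as well, against 55, 152 and 0 of all probe sets. Both comparisons use the same 10 control rats. The median difference of the 46 genes was -0.01 on the log2 scale after 1 day and 0.01 after 4 days, beside -0.02 and -0.01 over all genes. Here and throughout, differences are handled minus control on the log2 scale, and the genes that the paper names ran the opposite way in the deposited values.

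The intervals show how large a change the data leave room for. The 95% interval of the difference lay within 1.5-fold in either direction for 27 genes after 1 day, for 27 after 4 days and for 23 in both comparisons. It lay within 2-fold for 42, 43 and 41 genes. The genes with wider intervals in either comparison were Abca8, Abcb9, Abcc8, Abcg2 and Abcg5. In liver RNA, fewer cells of a type and less RNA per cell cannot be told apart. RNA quality moved with the groups: the 3' Gapdh probe set over the 5' set gave a ratio on the log2 scale of 0.55 to 0.70 in controls, 0.66 to 0.83 after 1 day and 0.70 to 0.96 after 4 days. With this ratio as a covariate, 0 of the 46 genes passed in either comparison, against 0 and 5 of all probe sets. Its part in the differences below was not tested further.

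**Figure D1:**
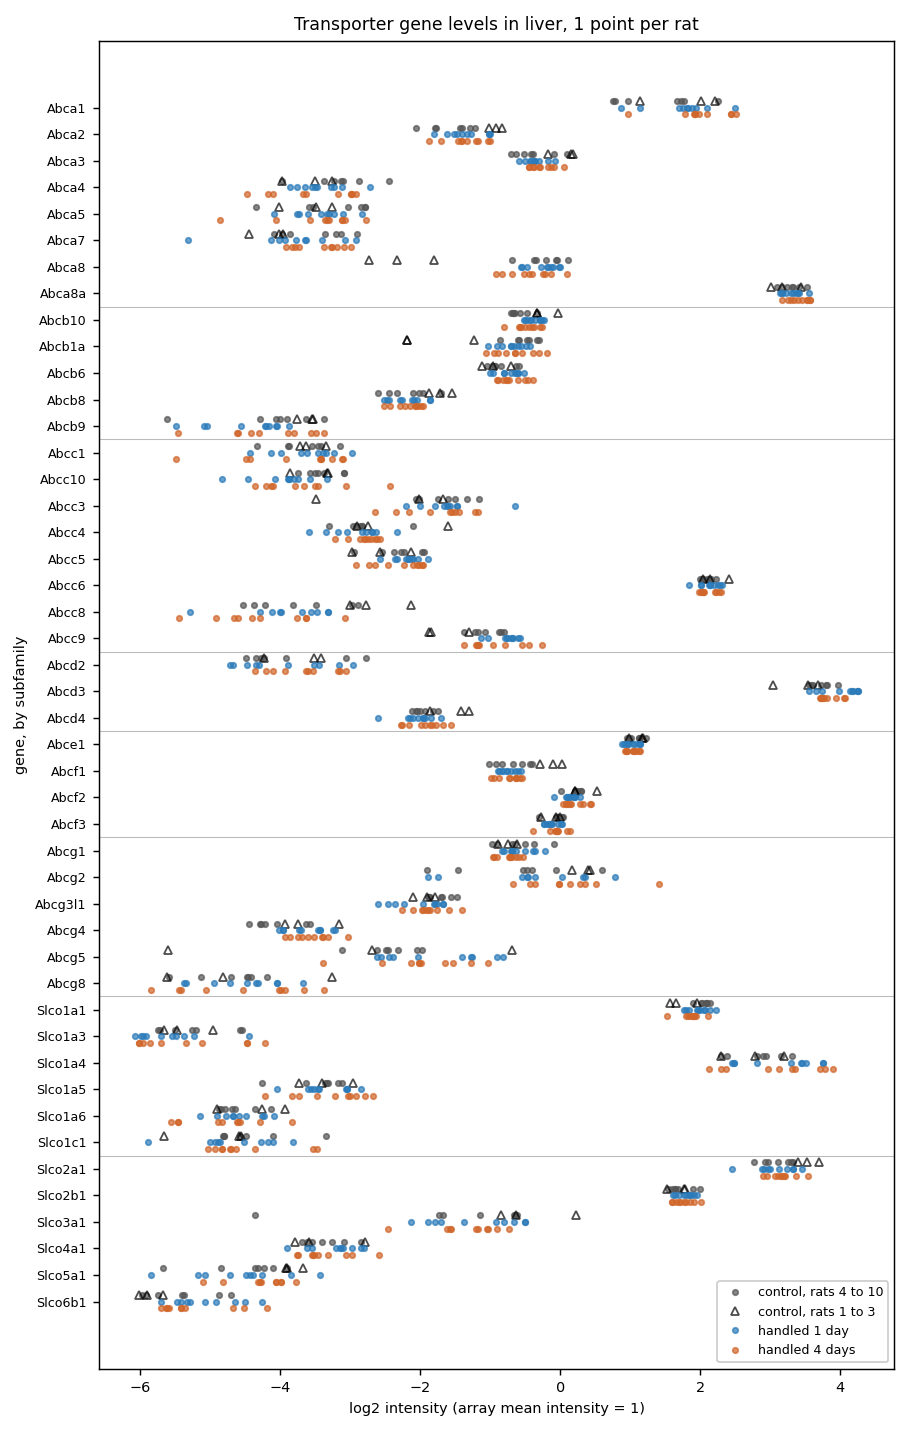
Log2 intensity (array mean intensity = 1) of the 46 genes by subfamily, 1 point per rat, with controls in grey, control rats 1 to 3 as open triangles, rats handled for 1 day in blue and for 4 days in orange. The ranges of handled and control points overlap. Since overlap was not counted over all genes, it says nothing particular to the transporters. The triangles lie apart from all other points in Abca8, Abcb1a and Abcf1, 6.52% of the 46 genes, beside 8.90% of all genes.

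**Figure D2:**
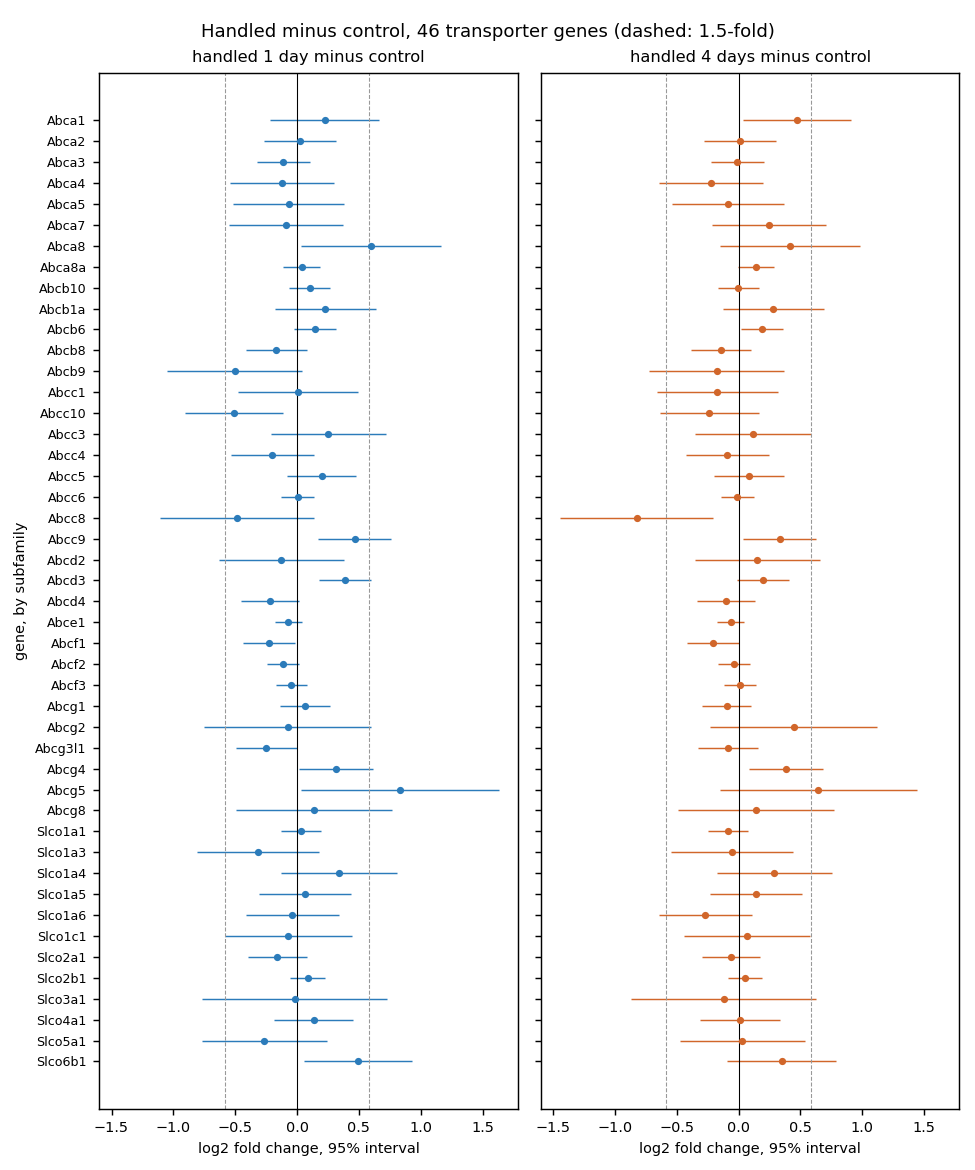
Log2 fold change of each gene, handled minus control, with its 95% interval, after 1 day (left) and 4 days (right). Dashed lines mark 1.5-fold, and 23 of 46 genes have both intervals inside them.

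Among the Abca genes, which move lipids, Abca8a and Abca1 had the highest mean intensity of their probe sets. Abca8a lay at 8.06, 9.65 and 11.5 (lowest, median and highest) in controls, 8.81, 9.90 and 11.8 after 1 day and 8.95, 10.7 and 11.9 after 4 days. The differences were 0.04 ± 0.07 and 0.14 ± 0.07 (SE), with adjusted p of 0.915 and 0.474, and the groups overlapped almost fully. Abca1, the pump that loads cholesterol and phospholipid onto apolipoprotein A-I, lay at 1.68, 3.25 and 4.77 in controls, 1.83, 3.53 and 5.65 after 1 day and 1.96, 3.88 and 5.67 after 4 days. Its difference after 4 days was 0.47 ± 0.22, 95% interval 0.03 to 0.91, adjusted p 0.392 (limma), with 3 of 10 rats above every control. Without control rats 1 to 3 this difference was 0.58 (adjusted p 0.312, limma).

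The 4 Abca1 probe sets did not give the same answer. After 4 days the brightest and the dimmest were higher by 0.47 and 0.54 (adjusted p 0.392 and 0.199), while the others differed by 0.03 and -0.00 (adjusted p 0.931 and 0.992). Over the 27 rats without control rats 1 to 3, the brightest set fell into separate ranges, 6 rats at 2.21 or below and 21 at 3.17 or above. The 6 rats were 3 controls, 2 rats handled for 1 day and 1 handled for 4 days. Within the 21 rats, the brightest set correlated with the dimmest Abca1 set (r = 0.82, rho = 0.80) but not with the other Abca1 sets (r = -0.07 and -0.09). It correlated as well with the probe set of Nipsnap3b (r = 0.81, rho = 0.64), the protein-coding gene next to Abca1 in RefSeq. Over all 27 rats, so across both ranges, Nipsnap3b was the most like it of 14216 genes. No such ranking was made within the 21 rats. Within the 6 rats the r with Nipsnap3b was 0.05 (rho = 0.0857), and with the other Abca1 sets it was 0.75 for the dimmest (rho = 0.89) and 0.84 and 0.24 for the others (rho = 0.83 and 0.20). These are descriptions over rats measured on the same arrays for both genes, and whether a probe set reads transcript of the neighbouring gene was not tested. The value called Abca1 above is therefore that of a probe set, not of the gene as a whole.

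**Figure D3:**
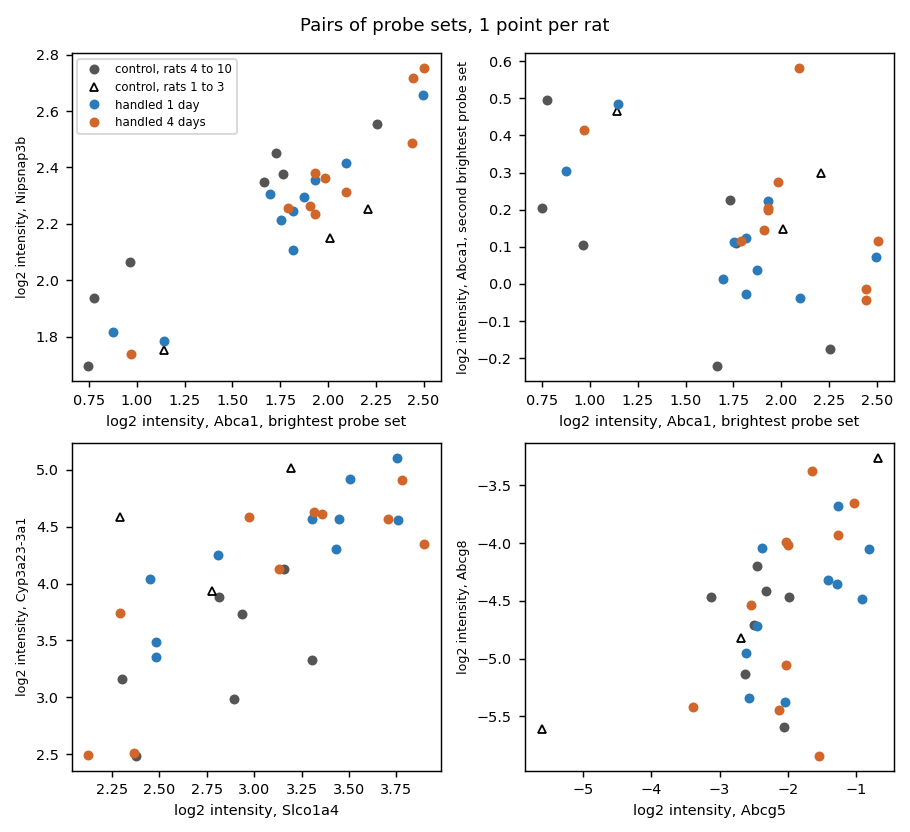
Log2 intensity of pairs of probe sets, 1 point per rat, coloured by group, with control rats 1 to 3 as open triangles. Without control rats 1 to 3, the brightest Abca1 set fell into ranges of 21 and 6 rats. In the upper 21 it follows Nipsnap3b (r = 0.81) and not the second brightest Abca1 set (r = -0.07). In the lower 6 these r are 0.05 and 0.24. Slco1a4 follows Cyp3a23-3a1 with r = 0.80 over 27 rats, and Abcg5 and Abcg8 are more loosely related (r = 0.43).

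Abca8, a lipid transporter of the same chromosomal cluster as Abca8a, had a difference from controls that rested on control rats 1 to 3. Those rats had 0.151, 0.199 and 0.285, the other 7 controls 0.622 to 1.08 (median 0.871), rats handled for 1 day 0.677 to 1.00 (median 0.883) and rats handled for 4 days 0.527 to 1.07 (median 0.742). With all controls the difference after 1 day was 0.60 ± 0.28 (adjusted p 0.505), and without control rats 1 to 3 it was -0.02 (adjusted p 0.984). After 4 days the values were 0.41 ± 0.28 (adjusted p 0.603) and -0.20 (adjusted p 0.5998). A second, dim Abca8 probe set was the only 1 of the 66 member sets to pass the test. It lay at 0.0225, 0.0358 and 0.0486 in controls, 0.0159, 0.0326 and 0.0478 after 1 day and 0.0149, 0.0202 and 0.0310 after 4 days, at the low end of the arrays. After 4 days it fell by 0.80 on the log2 scale (SE 0.20, adjusted p 0.0888, limma), and without control rats 1 to 3 by 0.86 (adjusted p 0.0951). The brighter set differed after 4 days by 0.41 with all controls and by -0.20 without control rats 1 to 3, neither of which passed. The r of both sets over the 27 rats was 0.20 (rho = 0.19, permutation p 0.307 and 0.343).

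Of the Abcb genes, Abcb1a encodes a drug efflux pump (P-glycoprotein) of the canalicular membrane. Control rats 1 to 3 had 0.220, 0.220 and 0.424, below all other rats, which lay between 0.480 and 0.873. The medians were 0.719 in the other 7 controls, 0.623 after 1 day and 0.639 after 4 days. The differences against all controls were 0.23 ± 0.20 and 0.28 ± 0.20 (adjusted p 0.758 and 0.631) and turned to -0.18 and -0.13 without control rats 1 to 3 (adjusted p 0.712 and 0.740). The second Abcb1a probe set was also low in these rats, at 0.192, 0.195 and 0.348. A probe set annotated to both Abcb1a and Abcb1b, which is not among the members, had 0.136, 0.155 and 0.247 there and 0.189 to 0.720 elsewhere. So had Abcb4, the phosphatidylcholine floppase that was left out by the rule, with 1.03, 0.986 and 2.04 against 3.89 to 6.25 in the other rats.

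Abcb6 and Abcb10 are carriers of the haem pathway. Abcb6 lay at 0.460, 0.524 and 0.662 in controls, 0.497, 0.627 and 0.699 after 1 day and 0.532, 0.595 and 0.766 after 4 days. Its difference after 4 days was 0.19 ± 0.08 (95% interval 0.02 to 0.36, adjusted p 0.371), with 3 of 10 rats above every control. Abcb10, at the inner mitochondrial membrane, had medians of 0.692, 0.766 and 0.719 and differences of 0.10 ± 0.08 and -0.00 ± 0.08 (adjusted p 0.729 and 0.993), which were 0.21 and 0.10 without control rats 1 to 3 (adjusted p 0.368 and 0.660).

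Among the Abcc genes, Abcc9 had the smallest p after 1 day and Abcc8 after 4 days (limma). Abcc9 encodes a sulfonylurea receptor subunit of ATP-sensitive potassium channels, typical of vascular cells. Control rats had 0.271, 0.436 and 0.571, with control rats 1 to 3 at 0.279, 0.405 and 0.271. Rats handled for 1 day had 0.457, 0.602 and 0.668, with 8 of 10 above every control, and rats handled for 4 days 0.384, 0.479 and 0.836, with 4 of 10 above. The difference after 1 day was 0.47 ± 0.14 (95% interval 0.17 to 0.76, adjusted p 0.279) and 0.28 without control rats 1 to 3 (adjusted p 0.584). After 4 days it was 0.33 ± 0.14 (adjusted p 0.371) and 0.14 (adjusted p 0.753). The other 2 Abcc9 probe sets gave smaller differences after 1 day, 0.23 and 0.29 (adjusted p 0.574 and 0.698), with 3 of 10 rats above every control in each, and 0.14 and -0.06 after 4 days (adjusted p 0.711 and 0.943). Without control rats 1 to 3 these were 0.09 and 0.25 after 1 day and -0.008 and -0.099 after 4 days (adjusted p from 0.827 to 0.992, limma). The summed stellate cell markers ranged from 8.17 to 11.8 in controls, 9.46 to 11.9 after 1 day and 8.66 to 12.0 after 4 days, those of endothelium from 15.03 to 18.8, 17.2 to 20.2 and 14.8 to 18.8. Their part in the Abcc9 values was not tested.

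Abcc8, the other sulfonylurea receptor, was dim and scattered, at 0.0433, 0.107 and 0.229 in controls, 0.0257, 0.0700 and 0.1005 after 1 day and 0.0229, 0.0491 and 0.119 after 4 days. Control rats 1 to 3, with 0.125, 0.229 and 0.146, were high among the controls. The difference after 4 days was -0.82 ± 0.30 (95% interval -1.44 to -0.20, adjusted p 0.262), and -0.49 without those rats (adjusted p 0.592). Abcc10, an exporter of the multidrug resistance group, lay at 0.0691, 0.0936 and 0.118 in controls and 0.0351, 0.0682 and 0.0989 after 1 day, with 6 of 10 rats below every control. The difference was -0.51 ± 0.19 (adjusted p 0.405), and after 4 days, with values up to 0.186, it was -0.24 ± 0.19 (adjusted p 0.688). Abcc6, a bright hepatocyte gene whose loss causes ectopic mineralisation in humans, held a narrow range, 3.98 to 5.33 in controls, 3.59 to 4.94 after 1 day and 3.97 to 4.90 after 4 days. Its differences of 0.01 and -0.01 had 95% intervals of -0.13 to 0.14 and -0.14 to 0.12. The sinusoidal exporters Abcc3 and Abcc4, which return conjugates and bile acids to blood, differed by 0.25 and -0.20 after 1 day and 0.12 and -0.09 after 4 days (adjusted p from 0.741 to 0.896). Without control rats 1 to 3, Abcc3 differed by 0.03 and -0.11 and Abcc4 by -0.08 and 0.03 (adjusted p from 0.890 to 0.986). Abcc2, the canalicular conjugate pump left out by the rule, fell by 0.45 after 4 days (SE 0.11, adjusted p 0.0847, limma), from a median of 10.9 to 7.76. After 1 day, when 0 of the 4 genes left out passed, its median was 8.40. In each handled group 10 of 10 rats lay below its control median.

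Abcd3, which carries branched-chain and long-chain acyl-CoA into peroxisomes, had the smallest p of the 46 genes after 1 day. Control rats 1 to 3 had 8.21, 11.6 and 12.9 and the other 7 controls 11.8, 13.3 and 15.7. Rats handled for 1 day had 11.7, 17.8 and 19.1, with 7 of 10 above every control, and rats handled for 4 days 13.1, 13.6 and 16.7, with 2 of 10 above. After 1 day most rats thus lay above the control range and the remaining 3 within it, while after 4 days the groups overlapped. The difference after 1 day was 0.38 ± 0.10 (95% interval 0.17 to 0.59, adjusted p 0.195), and without control rats 1 to 3 it was 0.29 (adjusted p 0.333). After 4 days it was 0.20 ± 0.10 (adjusted p 0.480), and 0.10 without those rats (adjusted p 0.757). It passed the test after 1 day in a single setting, without the dimmest 40% of the probe sets (adjusted p 0.0994). Of 22 measured genes of peroxisomal fat oxidation and biogenesis, 0 passed after 1 day, with 7 higher and 0 lower at an unadjusted p under 0.05 (limma), where 4.63% of all genes lay higher and 6.51% lower, and a smallest adjusted p of 0.107. After 4 days 0 passed, with 3 higher and 2 lower, beside 4.99% and 7.6% of all genes. In 6 of these 22, or 27.3%, control rats 1 to 3 lay outside all other rats, beside 8.90% of all genes, and their part in the list's counts was not tested. The genes most like Abcd3 over 27 rats were Acaa2 (r = 0.70), Dag1 (0.68) and Decr2 (0.67), out of 14216. Within the 7 controls, 1 day and 4 days, r was 0.16, 0.80 and 0.62 for Acaa2. In the same order it was 0.94, 0.69 and 0.16 for Dag1 and 0.87, 0.60 and 0.22 for Decr2. Abcd4, a lysosomal carrier for vitamin B12, had medians of 0.268, 0.2505 and 0.269 and differences of -0.21 ± 0.11 and -0.10 ± 0.11 (adjusted p 0.582 and 0.796). The highest 2 controls were control rats 1 and 2, at 0.376 and 0.405, and without control rats 1 to 3 the differences were -0.08 and 0.03 (adjusted p 0.903 and 0.955).

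**Figure D4:**
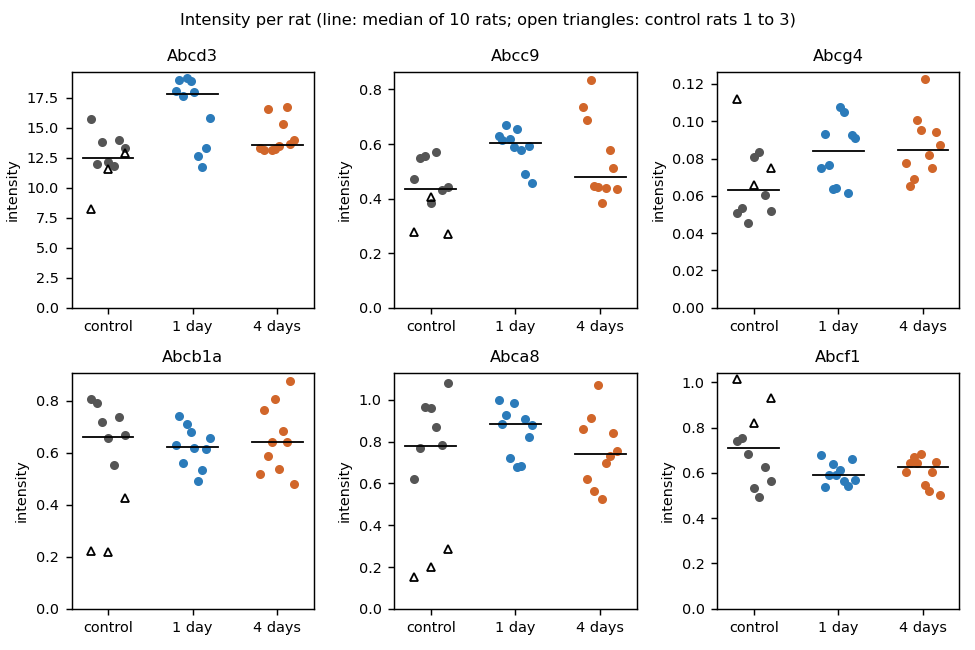
Intensity (linear scale, array mean intensity = 1) of 6 genes in each rat, with the group median as a line and control rats 1 to 3 as open triangles. In Abcd3 7 of 10 and in Abcc9 8 of 10 rats handled for 1 day lie above every control, Abcg4 overlaps, and in Abcb1a, Abca8 and Abcf1 the triangles lie outside all other rats.

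Abce1 and the Abcf genes act in translation. Abce1, the ribosome recycling factor, lay at 1.94, 2.18 and 2.33 in controls, 1.84, 2.01 and 2.20 after 1 day and 1.90, 2.05 and 2.19 after 4 days. Its differences were -0.07 ± 0.05 and -0.06 ± 0.05 (adjusted p 0.714 and 0.681). Its SD over 27 rats, 0.09 on the log2 scale, was the lowest of the 46 genes. The genes most like it over these rats were Eif4a1 (r = 0.77), Larp1 (0.74) and Eif3b (0.70), out of 14216. Abcf1 lay above all other rats in control rats 1 to 3, at 1.02, 0.822 and 0.932 against 0.493 to 0.752. Its differences of -0.23 ± 0.10 and -0.21 ± 0.10 (adjusted p 0.505 and 0.454) shrank to -0.05 and -0.04 without these rats. Abcf2 had medians of 1.16, 1.09 and 1.11 and differences of -0.11 ± 0.06 and -0.04 ± 0.06 (adjusted p 0.618 and 0.879).

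Abcg5 and Abcg8 form the heterodimer that pumps sterols into bile, and the genes stand head to head. The 205 bases between the starts of both genes are shown because the upstream regions of both genes lie in them (RefSeq, GRCr8, chr6:15717731-15717935, strand of Abcg5, plus).

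Abcg5 and Abcg8 shared region: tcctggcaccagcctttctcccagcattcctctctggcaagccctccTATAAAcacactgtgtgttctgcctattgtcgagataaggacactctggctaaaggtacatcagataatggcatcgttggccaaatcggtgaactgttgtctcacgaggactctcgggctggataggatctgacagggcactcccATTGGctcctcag

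Capitals mark the matches among 5 motifs searched on both strands. They were AGGTCA (a core read by many nuclear receptors), CCAAT (the CCAAT box), GGGCGG (the GC box), TATAAA (the TATA box) and CACGTG (an E-box, the same on both strands), and no matches overlapped. TATAAA starts 158 bases before the Abcg5 start, and CCAAT, on the opposite strand, 13 bases before it. Of 27457 promoters of this length, 10.8% hold TATAAA and 29.9% CCAAT. Abcg5 lay at 0.0205, 0.180 and 0.622 in controls, 0.163, 0.310 and 0.568 after 1 day and 0.0958, 0.249 and 0.489 after 4 days. The lowest and the highest control were control rats 2 and 3, and control rat 1 had 0.155. The difference after 1 day was 0.83 ± 0.39 (95% interval 0.03 to 1.63, adjusted p 0.518), and 0.66 without these rats (adjusted p 0.531). Leaving out control rat 2 alone brought it to 0.50 (adjusted p 0.702), and leaving out control rat 3 alone to 1.04 (adjusted p 0.452). Abcg8, near the low end of the arrays, had medians of 0.0417, 0.0469 and 0.0525 and differences of 0.14 in both comparisons (adjusted p 0.925 and 0.908). Over 27 rats the levels of the 2 genes correlated with r = 0.43 and rho = 0.51 (permutation p 0.0247 and 0.00697, adjusted over 21 relations 0.0399 and 0.0146). Without the 2 rats farthest from the median of Abcg5, r was 0.34, and within the groups it was -0.26 in 7 controls, 0.60 after 1 day and 0.48 after 4 days.

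Abcg1, which exports cholesterol from macrophages, had medians of 0.628, 0.635 and 0.609 and differences of 0.07 ± 0.10 and -0.10 ± 0.10 (adjusted p 0.877 and 0.759). The genes most like it over 27 rats were Ctss (r = 0.83), Lgmn (0.81) and Grn (0.81). Its r with the sum of 4 Kupffer cell markers was 0.78 (rho = 0.73), and with Cd68, Cd5l, Clec4f and Cd163 singly 0.80, 0.75, 0.67 and 0.32. The summed Kupffer markers were 14.6 to 24.3 in controls, 15.4 to 25.6 after 1 day and 12.7 to 17.7 after 4 days, and 0 of the 4 passed the test. After 4 days 3 of the 4 were lower at an unadjusted p under 0.05 (limma, smallest adjusted p 0.237), with a median difference of -0.28. Their part in the Abcg1 values was not tested. Abcg2, a pump for urate, porphyrins and drugs, had a wide range, 0.267, 0.858 and 1.51 in controls, 0.270, 0.754 and 1.73 after 1 day and 0.626, 1.04 and 2.66 after 4 days. Of the 27 rats 4 lay at 0.365 or below, 2 controls and 2 rats handled for 1 day, and 23 at 0.626 or above. The differences were -0.07 ± 0.33 and 0.44 ± 0.33 (adjusted p 0.966 and 0.648). Without control rats 1 to 3, at 1.31, 1.34 and 1.12, they were 0.21 and 0.72 (adjusted p 0.934 and 0.454). Abcg4, a dim gene, lay at 0.0457, 0.0630 and 0.112 in controls, 0.0614, 0.0838 and 0.108 after 1 day and 0.0654, 0.0847 and 0.123 after 4 days. Its differences were 0.32 ± 0.15 and 0.39 ± 0.15 (adjusted p 0.504 and 0.281), and 0.45 and 0.52 without control rats 1 to 3 (adjusted p 0.292 and 0.119), the smallest adjusted p of the 46 genes in both comparisons without those rats.

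Of the Slco1 genes, Slco1a1 and Slco1a4 encode sinusoidal uptake carriers for bile acids and steroid conjugates. Slco1a1 lay at 2.96, 4.06 and 4.41 in controls, 3.40, 3.95 and 4.67 after 1 day and 2.88, 3.71 and 4.32 after 4 days. Its differences were 0.03 ± 0.08 and -0.08 ± 0.08 (adjusted p 0.936 and 0.728). Without control rats 1 to 3, at 3.14, 2.96 and 3.86, they were -0.07 and -0.18 (adjusted p 0.865 and 0.313). Slco1a4 is a known target of pregnane X receptor, the sensor of drugs and steroids that also drives Cyp3a genes. The 250 bases before its start are given because its SD over rats lay above the band of all genes at its brightness (RefSeq, GRCr8, chr4:176495847-176496096, minus strand).

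Slco1a4: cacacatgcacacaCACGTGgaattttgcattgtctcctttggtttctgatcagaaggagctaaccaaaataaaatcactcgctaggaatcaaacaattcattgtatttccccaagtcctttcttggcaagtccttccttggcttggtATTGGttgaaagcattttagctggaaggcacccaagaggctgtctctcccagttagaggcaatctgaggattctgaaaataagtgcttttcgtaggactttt

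Capitals mark CACGTG, which starts 236 bases before the start, and CCAAT on the opposite strand, 102 bases before it, found in 5.79% and 34.3% of promoters of this length. Slco1a4 lay at 4.90, 7.23 and 9.90 in controls, 5.47, 10.3 and 13.5 after 1 day and 4.36, 9.36 and 14.9 after 4 days. In each handled group 5 of 10 rats lay above every control, and after 4 days 2 lay below. The differences were 0.34 ± 0.23 and 0.29 ± 0.23 (adjusted p 0.682 and 0.672). Both Slco1a4 probe sets ranked the rats alike (r = 0.97, rho = 0.96 over 27 rats, permutation p 1e-05 for each, the smallest the resamples can give). The gene most like Slco1a4 was Cyp3a23-3a1, with r = 0.80 and rho = 0.79 over 27 rats, 0.78 without the 2 farthest rats, and 0.59, 0.87 and 0.83 within controls, 1 day and 4 days. Most unlike it was Abhd2 (r = -0.81). Cyp3a23-3a1 ranged from 5.60 to 34.5 over these rats. Slco1a3, Slco1a5, Slco1a6 and Slco1c1 were dim, with group medians from 0.0202 to 0.115 and adjusted p from 0.610 to 0.967.

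Of the other Slco genes, Slco2b1 is an uptake carrier of hepatocytes and Slco2a1 the prostaglandin carrier. Slco2b1 lay at 2.88, 3.17 and 4.01 in controls, 3.04, 3.52 and 3.86 after 1 day and 3.04, 3.34 and 4.03 after 4 days, with differences of 0.08 ± 0.07 and 0.05 ± 0.07 (adjusted p 0.733 and 0.818). Slco2a1 lay at 6.81, 9.71 and 13.0, 5.46, 8.37 and 10.99, and 7.45, 8.93 and 11.6 in the same order. The values of control rats 1 to 3 were 11.5, 13.0 and 10.5, above the other 7 controls, and the differences of -0.16 ± 0.12 and -0.06 ± 0.12 (adjusted p 0.706 and 0.891) became -0.03 and 0.07 without them. Slco3a1 lay at 0.0487, 0.594 and 1.17 in controls, 0.227, 0.456 and 0.703 after 1 day and 0.182, 0.438 and 0.5996 after 4 days, with differences of -0.02 ± 0.37 and -0.12 ± 0.37 (adjusted p 0.992 and 0.940). Its differences depended on few rats. Without control rats 1 to 3 they were 0.32 and 0.22 (adjusted p 0.888 and 0.884, limma). Without control rat 10, the lowest, they were -0.37 and -0.47 (adjusted p 0.648 and 0.472, limma). Leaving out each rat in turn gave values up to 0.14 and 0.040, so leaving out a single rat could also turn the sign. Slco6b1, close to the low end of the arrays, had medians of 0.0191, 0.0276 and 0.0235 and a difference of 0.49 ± 0.21 after 1 day (adjusted p 0.477). Without control rats 1 to 3 that difference was 0.36 (adjusted p 0.727, limma).

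Spread between rats differed widely among the genes. Over the 27 rats without control rats 1 to 3, the median SD was 0.32 on the log2 scale for the 46 genes and 0.27 for all genes. The ratio of highest to lowest was under 2-fold in 15 genes, above it in 31 and above 4-fold in 14. Of the 25 genes above the array median on every array, 10 exceeded 2-fold and 3 exceeded 3-fold, namely Abca1 (3.38-fold), Slco1a4 (3.42-fold) and Abcg2 (9.95-fold). Set against all genes of like brightness, 7 of the 46 had an SD above the 90th percentile. Slco3a1 had the widest range, 14.4-fold, of which control rat 10 at 0.0487 set the lower end. Both its probe sets followed each other (r = 0.71, rho = 0.84, permutation p 0.00022 and 1e-05). Of 17 pairs of probe sets in genes other than Abca1, 9 passed with r above 0 (permutation p adjusted over 21 relations under 0.05) and 8 did not pass. The 9 pairs included Slco2a1 (r = 0.83, rho = 0.83), Slco2b1 (0.71, 0.70) and Abcc9 (0.69, 0.65).

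**Figure D5:**
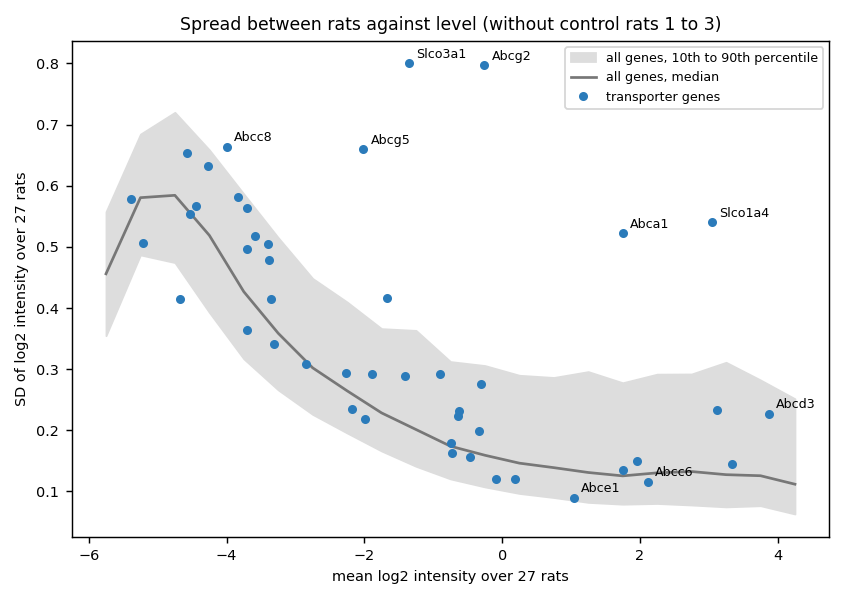
SD of log2 intensity over 27 rats against mean log2 intensity, with the 46 genes as points and all genes as a band from the 10th to the 90th percentile around the median line. Slco3a1, Abcg2, Abcg5, Abcc8, Slco1a4, Abca1 and Abcc3 lie above the band, and Abce1 has the lowest SD, 0.09.

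Lists of related genes gave few calls. Of 26 measured regulators of transport and sterol or xenobiotic metabolism, 0 passed in either comparison. Of 17 carriers of the Slc22 and Slc47 families, 0 passed after 1 day and 1 after 4 days, Slc22a24, which fell by 0.89 (SE 0.22, adjusted p 0.0902, limma). Slc22a24 lay near the low end of the arrays, at 0.0353, 0.0524 and 0.0879 in controls, 0.0165, 0.0380 and 0.0438 after 1 day and 0.0155, 0.0310 and 0.0537 after 4 days. Of 19 conjugating enzymes and of 14 genes of sterol handling, 0 passed in either comparison. At an unadjusted p under 0.05 (limma) these lists, in the same order, gave 0, 3, 1 and 2 genes after 1 day and 5, 3, 0 and 4 after 4 days, where 11.1% and 12.6% of all genes lay. Among the marker lists of other liver cell types, 1 gene passed, Nkg7, 1 of 6 measured markers of T and natural killer cells. It fell by 0.42 after 4 days (SE 0.11, adjusted p 0.0902, limma), where 0.732% of all genes passed. Of these 6 markers, 0 lay above the array median on every array.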

How the data were processed

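Probe-set values of 30 arrays were used as deposited: per the file headers and the labels, a linear intensity for each probe set in each rat. The mean over the probe sets of an array is 1, so the authors had scaled the arrays, and how probes were summarised and scaled is not given in the sources used here. The file held 31099 probe sets, and the 57 that are Affymetrix controls were dropped. Names came from a platform annotation (20826 probe sets with 1 symbol, 436 with several, 9780 with none listed), and all 46 members kept their symbol under their Entrez ID in RefSeq. The members and gene lists were chosen with earlier results of these data known.

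Log2 intensities without an offset were fitted with limma 3.58.1 in R 4.3.3, the 3 groups in 1 model without covariates, with Benjamini-Hochberg adjustment over 31042 probe sets and a call at an adjusted p under 0.1. The labels number the replicates within each group, and the paper gives 10 rats per group, so each array was taken as a separate rat. The number of arrays limits the precision. No arrays were identical (pairwise r from 0.946 to 0.976).

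Genes were named by rule: the 2 brightest of each subfamily, the smallest p-values of each comparison with control, genes in which control rats 1 to 3 lay outside all others, and those with the highest SD over the 27 other rats. Other genes, such as Abcb4, Abcg5 and Nipsnap3b, are given as context and were chosen after their values were seen. These control rats were shown apart because they stood apart over all genes, with no test between them and the other rats. Correlations used 27 rats, two-sided, with 100000 resamples for 21 relations. Alternatives were quantile normalization, an offset of 0.05, array weights, an intensity trend, a replicate block, only the groups compared, an exact rank-sum test, the methods' t-test, 1 probe set per gene, every probe set of a member, a filter on dim sets, the Gapdh ratio as a covariate, a threshold of 0.05, leaving out control rats 1 to 3 and leaving out each rat in turn. Scripts were tested on simulated data. Sequences came from RefSeq (GRCr8), whose promoter table held 38 of the 46 genes. The intensities carry no coordinates.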

Additional observations from a re-analysis of the deposited data

Results flagged for a closer look

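Dixon's test was applied on the log2 scale to 72 sets of 10 rats (24 named genes in 3 groups). In 6 sets the gap of a rat to the nearest other rat, divided by the range of the group, exceeded the critical value. Chance gives about 1 in 20 for genes chosen beforehand. Some of these genes were named for their SD, their p or control rats 1 to 3 in these same data, so that rate cannot be set against the 6. Rat 1 handled for 4 days was low in Abca1 (1.96 against 3.45 to 5.67 in the rest of its group, ratio 0.534). Rat 1 handled for 1 day was low in Abcc8 (0.0257 against 0.0512 to 0.1005, ratio 0.506) and in Abcd4 (0.165 against 0.220 to 0.307, ratio 0.468). Control rat 1 was low in Abcd3 (8.21 against 11.6 to 15.7, ratio 0.532). In Slco3a1, control rat 10 (0.0487 against 0.29995 to 1.17, ratio 0.572) and rat 2 handled for 4 days (0.182 against 0.327 to 0.5996, ratio 0.491) were low.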

How the results depend on the processing

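The count of transporter genes called was 0 in each comparison, and of 132 counts under alternatives 130 stayed at 0. Without the dimmest 40% of probe sets, which left 36 of the genes and fewer probe sets to adjust over, 1 gene, Abcd3, passed after 1 day. With every probe set of the members counted, 1 gene, Abca8 through its dim set, passed after 4 days. Leaving out each rat in turn gave 0 to 0 genes in every comparison, while over all probe sets the calls ranged from 1 to 44 after 1 day and from 86 to 307 after 4 days. With the replicate number as a block, 0 genes passed (all probe sets 2 and 85, against 28 and 204 without it). The labels do not say whether the numbers pair the rats. Deviations of same-numbered rats correlated at -0.04 to 0.12, with 1 of 30 pairs over 0.1. Differently numbered rats were not set beside them, so these values cannot decide it. Over all probe sets, other settings gave 0 to 113 calls after 1 day and 5 to 490 after 4 days, the lowest with the Gapdh ratio as a covariate and the highest without dim probe sets. Without control rats 1 to 3, all probe sets gave 102 and 257 calls, and 7 of 46 genes changed sign after 1 day and 13 after 4 days. The adjusted p of Abcd3 after 1 day ranged from 0.0994 to 0.60005 over the alternatives that kept each rat or left out control rats 1 to 3, and its difference from 0.29 to 0.39, and leaving out 1 rat gave 0.144 to 0.337 and 0.32 to 0.44. Of 2010 values of the 24 named genes under alternatives, 60 turned sign, in 14 of 48 gene and comparison pairs, with a smallest adjusted p of 0.5998 among them (limma). Without control rats 1 to 3, the turned differences were -0.019 and -0.20 in Abca8 and -0.18 and -0.13 in Abcb1a (1 and 4 days), after 1 day 0.21 in Abcg2, -0.068 in Slco1a1 and 0.32 in Slco3a1, and after 4 days 0.10 in Abcb10, 0.018 in Abcc6, 0.030 in Abcd4, 0.071 in Slco2a1 and 0.22 in Slco3a1. With array weights they were 0.075 in Abcg2, -0.014 in Slco1a1 and 0.062 in Slco3a1 after 1 day, and 0.046 in Abcb10 and 0.010 in Slco2a1 after 4 days. With the Gapdh ratio they were -0.046 in Abcc6, -0.055 in Abcg1 and 0.030 in Slco3a1 after 1 day, and with quantile normalization 0.0014 in Abcb10 and 0.0051 in Abcc6 after 4 days. Leaving out 1 rat gave -0.014 to 0.038 in Abcc6, -0.25 to 0.092 in Abcg2, -0.013 to 0.053 in Slco1a1 and -0.37 to 0.14 in Slco3a1 after 1 day, and -0.028 to 0.047 in Abcb10, -0.031 to 0.021 in Abcc6 and -0.47 to 0.040 in Slco3a1 after 4 days. It turned no sign in the other pairs. There it gave 0.39 to 0.71 and 0.21 to 0.52 in Abca8 (1 and 4 days). Abcb1a had 0.089 to 0.297 and 0.14 to 0.348 in the same order. Abcg1 had 0.025 to 0.127 after 1 day. After 4 days Abcd4 had -0.14 to -0.042 and Slco2a1 -0.11 to -0.0096. The cause was not tested. Signal over background limits the 7 genes below the array median on every array.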
